A study of Homo sapiens with 11 samples.

Results

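The 6 mature miRNAs described here are hsa-miR-103a-3p, hsa-miR-107 and both arms of miR-33a and miR-33b (hsa-miR-33a-5p, hsa-miR-33a-3p, hsa-miR-33b-5p and hsa-miR-33b-3p). They were chosen by name, as miRNAs that lie in introns of the PANK and SREBF genes of coenzyme A and lipid metabolism, out of 2576 miRNAs listed in both count tables. All 6 were detected and tested in both experiments. The cells were SH-SY5Y, a human neuroblastoma line that is a subline of SK-N-SH (the line named as the source in the labels) and that takes on a neuron-like form with all-trans retinoic acid (ATRA). All 4 groups, controls included, were differentiated with 10 µM ATRA for 7 days. In co-treatment, 3 H2O2 libraries came from cells that had 10 µM H2O2 throughout those 7 days, and 3 control libraries from cells without H2O2. In pre-treatment, 3 H2O2 libraries came from cells given 10 µM H2O2 for 72 h, which was removed before ATRA was added, and 2 control libraries from cells that had ATRA alone. As a model, this is 1 tumour-derived line, the study's methods speak of biological triplicates, and the labels do not say whether the libraries were separate cultures. The p-values measure the spread between these libraries, which may in part be technical.

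Animal miRNAs are cut from hairpins, and a strand from the 5′ (5p) or 3′ (3p) arm guides the silencing complex to mRNAs that pair with its seed, bases 2 to 8. miR-103a and miR-107 are hosted by pantothenate kinase genes, whose enzymes start coenzyme A synthesis, and are known for effects on insulin sensitivity and for repressing DICER1, the enzyme that cuts miRNA precursors. miR-33a and miR-33b are hosted by SREBF2 and SREBF1, which encode the transcription factors that switch on cholesterol and fatty acid synthesis. The 5p arms of miR-33 are known to repress ABCA1, the exporter that passes cholesterol to apolipoproteins, in neurons and glia as in liver.

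The mature sequences show which members share a seed, set in capitals, and how close the members of each pair are. They are printed from the RefSeq miRNA table (GRCh38.p14), in which all 6 members were found.
hsa-miR-103a-3p: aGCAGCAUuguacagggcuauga
hsa-miR-107: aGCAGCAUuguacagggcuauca
hsa-miR-33a-5p: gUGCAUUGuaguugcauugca
hsa-miR-33b-5p: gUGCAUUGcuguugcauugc
hsa-miR-33a-3p: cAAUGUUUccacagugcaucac
hsa-miR-33b-3p: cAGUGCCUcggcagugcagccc

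miR-103a-3p and miR-107 were identical at 22 of 23 bases and differed only by G22C, counted from 1 at the 5′ end with the miR-103a-3p base first. Their seed GCAGCAU was held by these 2 alone among 2370 mature names in the table. The 5p arms of miR-33a and miR-33b shared the seed UGCAUUG, also held by no other name, and differed by U9C and A10U over the 20 bases compared, with the miR-33a-5p base first. The 3p arms matched at 15 of 22 bases and had different seeds. AAUGUUU belonged to miR-33a-3p alone, and AGUGCCU of miR-33b-3p was shared with hsa-miR-515-3p and hsa-miR-519e-3p.

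On GRCh37, the assembly also called hg19 to which the authors aligned, each hairpin lay in an intron of its host gene, on the strand of that gene. The miR-107 hairpin MIR107 (chr10:91352500-91352586, minus strand) was in intron 5 of 6 of PANK1. miR-103a-3p has 2 hairpins, MIR103A1 (chr5:167987897-167987982, minus strand) in intron 5 of 6 of PANK3 and MIR103A2 (chr20:3898141-3898218, plus strand) in intron 5 of 6 of PANK2. MIR33A (chr22:42296948-42297016, plus strand) was in intron 16 of 18 of SREBF2, and MIR33B (chr17:17717150-17717245, minus strand) in intron 16 of 18 of SREBF1. The miR-103a-3p sequence matched the genome at 2 sites, the other 5 members at 1 site each, and the first 21 bases shared by miR-103a-3p and miR-107 at 3 sites. The counting rule for reads that match more than 1 place is not given in the sources used here, so the counts of miR-103a-3p, and its split from miR-107, are uncertain. Host mRNAs were not analysed here.

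Library totals ran from 5343953 to 8927582 counts, with a median of 7425640. Levels are given in CPM, counts divided by library size in units of 1e6 counts, after TMM scaling, which corrects for differences in library composition, except that sums over lists of cell type markers are in CPM of the library total without TMM. Pre-treatment control 1 stood apart from the other libraries in some markers of other cell types. Its miRNAs of white blood cells, a list of 4, summed to 121 CPM against 12.9 in control 2 and 17.5 to 20.7 in the H2O2 libraries, with hsa-miR-223-3p at 540 counts against 3 to 35 elsewhere. Its epithelial list summed to 182 CPM against 28.8 in control 2. Most of this sum was hsa-miR-205-5p, at 1007 counts against 10 to 32 elsewhere. The list members hsa-miR-200c-3p (178 counts) and hsa-miR-141-3p (79 counts) lay within the range of the other libraries. The 2 pre-treatment controls correlated at r = 0.933 across 868 miRNAs, below every other pair within a group (0.977 to 0.991, across miRNAs, which are not replicates). This value does not say which of the 2 controls differed. Of the neuronal miRNAs, hsa-miR-124-3p was at 0 to 7 counts and hsa-miR-9-5p at 14 to 46 counts in all 11 libraries, whereas hsa-miR-128-3p had 8016 counts or more. The muscle list summed to 0.577 to 3.72 CPM in the 11 libraries. In these bulk libraries, fewer cells of a type and less RNA per cell cannot be told apart.

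The members covered a wide span of levels. Scaled together over 11 libraries, miR-107 ranged from 611 to 2642 CPM (median 2113), miR-103a-3p from 40.2 to 124 (92.4), miR-33a-5p from 10.7 to 63.3 (25.8), miR-33a-3p from 3.39 to 30.6 (8.29), miR-33b-5p from 2.93 to 14.8 (5.74) and miR-33b-3p from 1.21 to 13.7 (3.08). A read covers the whole mature miRNA, so no length scaling was applied. miR-107 was above miR-103a-3p in 11 of 11 libraries, with 13.3 to 37.9 counts for each count of miR-103a-3p. How far these counts reflect the RNA levels is uncertain, since the counting rule for reads that match more than 1 place is not given. miR-103a-3p was above miR-33a-5p in 9 libraries and below it in 2, the co-treatment controls 1 and 3. For both miR-33 genes the 5p arm had more counts than the 3p arm in every library, and miR-33a-5p had 2.71 to 9.26 counts for each count of miR-33b-5p. miR-33a-3p and miR-33b-5p were neighbours that overlapped in range, miR-33a-3p being higher in 10 of 11 libraries. The lowest count of a member in any library was 11, for miR-33b-3p.

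**Figure D1:**
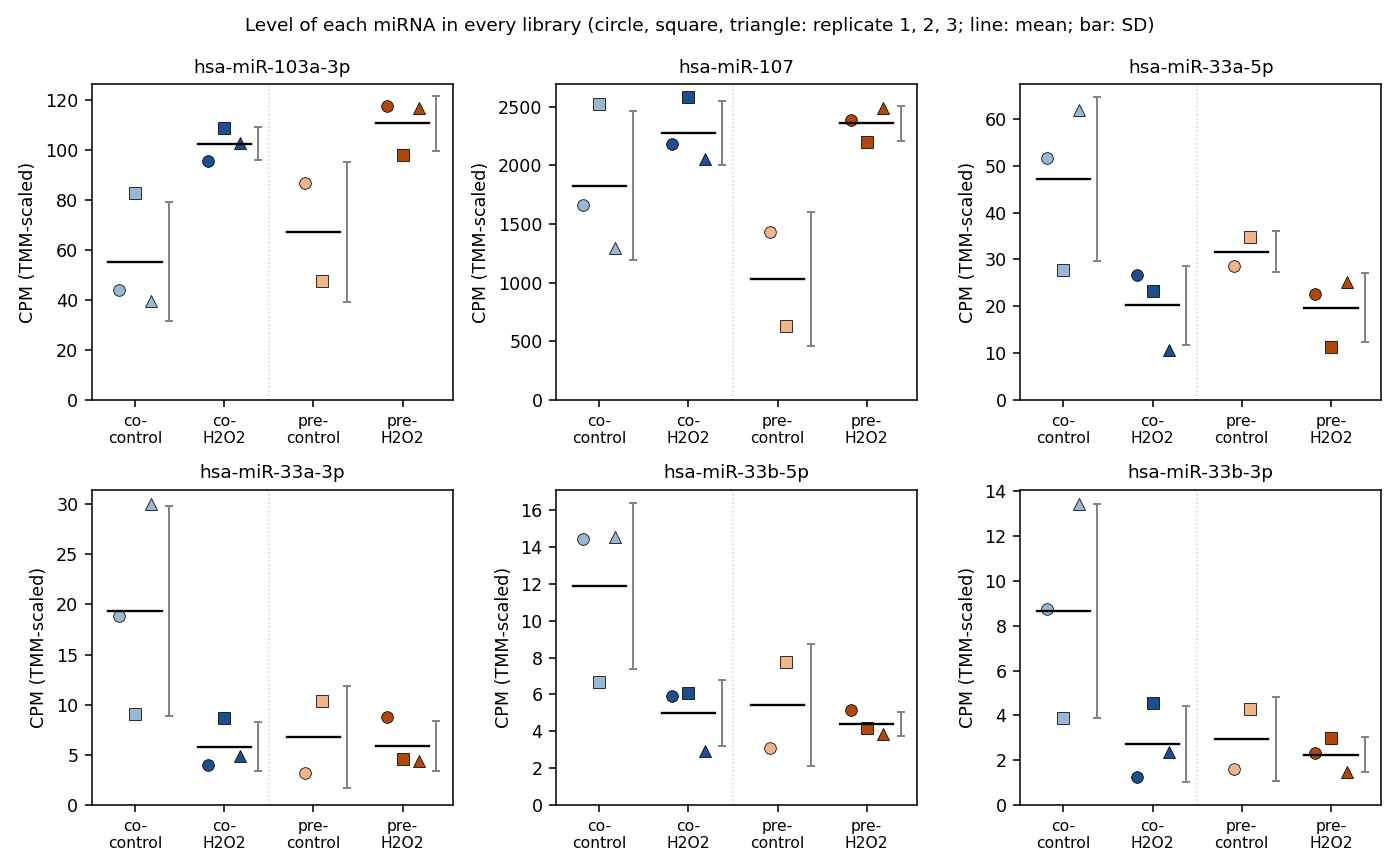
Level of each of the 6 miRNAs (CPM after TMM scaling within each experiment, axes from 0) in every library of the 4 groups, with the group mean as a line and the SD as a bar. In co-treatment the 4 miR-33 arms are lower in H2O2 than in controls 1 and 3, with control 2 nearest to the H2O2 libraries, while miR-103a-3p is higher in H2O2; in pre-treatment miR-107 lies at 2195 to 2492 CPM with H2O2 against 628 and 1432 in the controls.

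When H2O2 was present during differentiation, the 4 miR-33 arms fell and miR-103a-3p rose, while miR-107 did not pass the test. The 4 arms, from both miR-33 genes, fell by 1.22 to 1.73 on the log2 scale. Of the 6 members, 5 passed edgeR's exact test with a false discovery rate (FDR, the Benjamini-Hochberg adjusted p over all 790 miRNAs tested) under 0.05 and an absolute log2FC above 0.6, 1 raised and 4 lowered. Over all miRNAs tested, 26.2% passed, 10.6% raised and 15.6% lowered. The quasi-likelihood test called the same 5, against 22.9% of all tested (8.73% raised and 14.2% lowered). The members' median log2FC was -1.24, against -0.04 over all miRNAs tested. In 4 of the 6 the groups did not overlap, against 41.6% of all miRNAs. Both arms of a miR-33 gene come from the same hairpin, so the 6 members are not separate observations.

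hsa-miR-33a-5p, the more abundant arm, stood at 51.7, 27.8 and 61.9 CPM in the 3 controls and at 26.7, 23.2 and 10.6 CPM in the 3 H2O2 libraries. The groups did not overlap, but control 2 and H2O2 library 1 were close. The means were 47.1 ± 17.5 CPM (SD, n = 3) in controls and 20.2 ± 8.47 CPM (SD, n = 3) with H2O2, a log2FC of -1.22 (SE 0.36, edgeR exact test, FDR 0.00760).

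hsa-miR-33b-5p, which shares its seed, stood at 14.4, 6.68 and 14.5 CPM in controls and at 5.94, 6.10 and 2.92 CPM with H2O2. These groups also did not overlap, again by a narrow margin at control 2. The log2FC was -1.25 (SE 0.39, edgeR exact test, FDR 0.0138). With the counts of both 5p arms summed, as carriers of 1 seed, the log2FC was -1.23 (edgeR exact test, FDR 0.00653).

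The 3p arms are the less abundant strands, and their seeds differ from each other and from that of the 5p arms. hsa-miR-33a-3p stood at 18.9, 9.08 and 30.0 CPM in controls and at 3.995, 8.64 and 4.91 CPM with H2O2, with no overlap. Its log2FC of -1.73 (SE 0.41, edgeR exact test, FDR 0.00124) was the lowest among the members. hsa-miR-33b-3p stood at 8.73, 3.87 and 13.4 CPM in controls and at 1.26, 4.57 and 2.39 CPM with H2O2. Here the groups overlapped, since H2O2 library 2 was above control 2. The log2FC was -1.69 (SE 0.49, edgeR exact test, FDR 0.00771), from 11 to 97 counts a library.

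hsa-miR-103a-3p moved the other way, with 43.9, 82.7 and 39.4 CPM in controls and 95.5, 109 and 103 CPM with H2O2. The H2O2 libraries were all above the controls, and control 2 was again the nearest to them. The means were 55.3 ± 23.8 CPM (SD, n = 3) in controls and 102 ± 6.61 CPM (SD, n = 3) with H2O2, and the log2FC was 0.89 (SE 0.30, edgeR exact test, FDR 0.0248). hsa-miR-107 stood at 1664, 2526 and 1292 CPM in controls and at 2185, 2583 and 2058 CPM with H2O2. These groups overlapped, and the log2FC was 0.32 (SE 0.27, 95% interval -0.25 to 0.88, edgeR exact test, FDR 0.453). With miR-103a-3p and miR-107 summed the log2FC was 0.34 (edgeR exact test, FDR 0.415), close to that of miR-107, which held most of those counts.

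The other strand of the MIR103A2 hairpin, hsa-miR-103a-2-5p, went down while miR-103a-3p went up. It stood at 124, 44 and 112 counts in controls and at 34, 40 and 21 counts with H2O2, with no overlap in raw counts, but 6.77 CPM in H2O2 library 2 was above the 5.88 CPM of control 2. Its log2FC was -1.62 (SE 0.43, edgeR exact test, FDR 0.00406). Only this hairpin gives hsa-miR-103a-2-5p, whereas miR-103a-3p can come from either. hsa-miR-103b, from the antisense strand of these hairpins, had 0 counts in all 11 libraries.

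The co-treatment calls rested on few libraries. The share of all miRNAs called moved as well, from 26.2% with every library. Without control 3 none of the 6 members passed the exact test, against 14.7% of all miRNAs tested. The miR-33 arms still stayed at a log2FC of -0.92 to -1.20 and miR-103a-3p at 0.80. Without control 1 only miR-33a-3p passed (1 member, against 16.5% of all miRNAs). Without H2O2 library 1 there were 3 (17% of all) and without H2O2 library 3 there were 2 (13.2% of all). Without control 2 there were 5 (37% of all), and without H2O2 library 2 also 5 (29.9% of all). After a lowess trend on GC content was taken out of every library, 3 members passed the quasi-likelihood test. In that fit 7.43% of the 700 miRNAs with a sequence passed, against 22% before the trend was removed. The 3 were miR-33a-3p (log2FC -1.54), miR-33b-5p (-1.37) and miR-33b-3p (-2.31). Those that no longer passed were miR-103a-3p (0.93, edgeR FDR 0.0519) and miR-33a-5p (-0.86, edgeR FDR 0.109). The summed level of 5 neuronal miRNAs was 30866 to 38174 CPM in controls and 15840 to 19351 CPM with H2O2. hsa-miR-137 made up most of this sum (87.3% to 94.8% over the 11 libraries), but it was not alone in being lower without overlap. In CPM of the library total, hsa-miR-7-5p was at 416 to 644 in controls and 324 to 380 with H2O2. The scarce hsa-miR-9-5p was at 2.85 to 5.97 CPM and 2.24 to 2.62 CPM. By contrast, the groups overlapped for hsa-miR-128-3p (log2FC -0.04). Counts of hsa-miR-124-3p were 2, 2 and 0 in controls and 0 with H2O2. The white blood cell sum was 17.4 to 23.3 CPM in controls and 10.5 to 17.0 CPM with H2O2, also without overlap. Its members did not move together. hsa-miR-142-3p was at 67 to 98 counts in controls and 24 to 87 with H2O2, and hsa-miR-142-5p at 25 to 46 and 7 to 21. By contrast, hsa-miR-223-3p was at 3 to 7 counts in controls and 4 to 35 with H2O2, and hsa-miR-150-5p at 10 to 36 and 21 to 30. The part of these in the results was not tested.

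**Figure D2:**
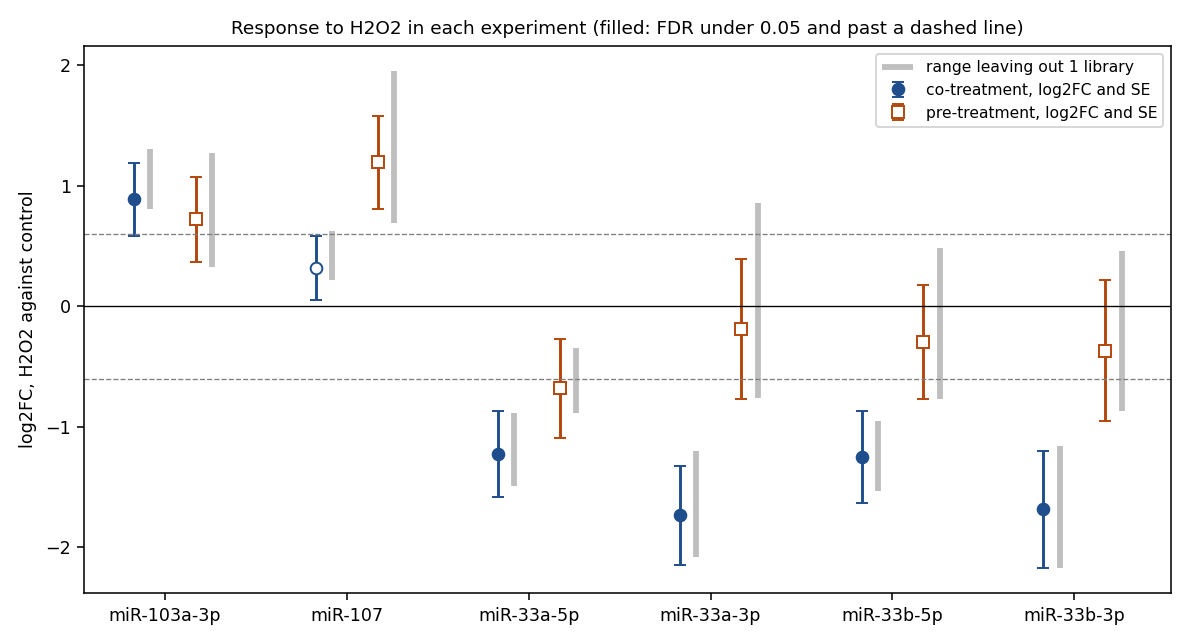
log2FC of H2O2 against control for each miRNA in co-treatment (circles) and pre-treatment (squares), with the SE of the quasi-likelihood fit as a bar, the range over fits that leave out 1 library in grey, and filled symbols for calls. The 4 miR-33 arms lie between -1.22 and -1.73 in co-treatment and between -0.19 and -0.68 in pre-treatment; the grey ranges of the co-treatment values stay on one side of 0.

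When H2O2 was given before differentiation and removed, none of the 6 members passed edgeR's exact test, against 15.3% of the 868 miRNAs tested (5.41% raised and 9.91% lowered). The quasi-likelihood test also gave 0 of 6, against 1.96% of all tested (0.461% raised and 1.5% lowered). At an unadjusted p under 0.05 in the exact test, 248 of the 868 miRNAs and 1 of the 6 members, miR-107, passed. The members' median log2FC was -0.24, near the -0.19 of all miRNAs tested. The groups did not overlap in 3 of the 6, as in 46% of all miRNAs tested.

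hsa-miR-107 had the largest difference among them. It stood at 1432 and 628 CPM in the controls and at 2384, 2195 and 2492 CPM with H2O2, so every H2O2 library was above both controls, which themselves differed by more than 2-fold. The means were 1030 ± 568 CPM (SD, n = 2) and 2357 ± 151 CPM (SD, n = 3), and the log2FC was 1.19 (SE 0.38, edgeR exact test, FDR 0.0566). hsa-miR-103a-3p stood at 86.8 and 47.4 CPM in the controls and at 117, 98.0 and 117 CPM with H2O2, also without overlap, with a log2FC of 0.72 (SE 0.35, edgeR exact test, FDR 0.287).

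Of the miR-33 arms, hsa-miR-33a-5p stood at 28.6 and 34.8 CPM in the controls and at 22.6, 11.4 and 25.2 CPM with H2O2. The H2O2 libraries were all below both controls, and the log2FC was -0.68 (SE 0.41, edgeR exact test, FDR 0.365). The other 3 arms overlapped between the groups. Their log2FC was -0.19 for miR-33a-3p (SE 0.58), -0.30 for miR-33b-5p (SE 0.48) and -0.37 for miR-33b-3p (SE 0.58), with counts of 11 to 75 a library. For each of these 3, control 1 was below control 2 by more than 2-fold: 24 against 68 counts of miR-33a-3p, 23 against 51 of miR-33b-5p and 12 against 28 of miR-33b-3p. hsa-miR-103a-2-5p had 1 count in control 1 and 73 in control 2, and 14 to 19 counts with H2O2, which gives no usable direction.

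The pre-treatment values depended on which control was used. Control 1 was the unusual one in some cell type markers, but for miR-107 it was control 2. Scaled together, miR-107 was at 611 CPM in control 2 against 1320 to 2642 CPM in the other libraries. Without control 1, the log2FC was 1.95 for miR-107 and 1.27 for miR-103a-3p. Without control 2, it was 0.69 for miR-107 and 0.32 for miR-103a-3p. Of the miR-33 arms, 3 turned sign between these fits. Without control 2 the log2FC was 0.86 for miR-33a-3p, 0.49 for miR-33b-5p and 0.46 for miR-33b-3p, and without control 1 it was -0.76, -0.77 and -0.87. In these fits the lone control is assumed to vary like the H2O2 libraries. Sums over some other marker lists also did not overlap here. The red blood cell list of 3 summed to 2.16 to 3.29 CPM in the controls and 9.17 to 14.2 CPM with H2O2, although its member hsa-miR-486-5p had 8 counts in both controls and 3 to 10 with H2O2. The liver list of 2, nearly all hsa-miR-122-5p, summed to 101 to 235 CPM and 547 to 786 CPM, while hsa-miR-885-5p was at 0 with H2O2 and at 9 and 3 counts without it. The neuronal sum, mostly hsa-miR-137, was 12560 to 20647 CPM in the controls and 29260 to 35356 CPM with H2O2. Of the other neuronal miRNAs, hsa-miR-128-3p was also higher without overlap (log2FC 0.61, not called). In CPM of the library total it was at 1156 and 1174 in the controls and 1764 to 1882 with H2O2. The rest overlapped. For hsa-miR-9-5p the controls were at 25 and 35 counts and the H2O2 libraries at 30 to 41. hsa-miR-7-5p was at 253 and 510 CPM of the library total in the controls and 505 to 643 with H2O2. hsa-miR-124-3p was at 2 and 0 counts in the controls and 2 to 7 with H2O2. The part of these in the result was not tested.

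Whether the response differed between the timings was tested as an interaction in 1 quasi-likelihood fit of all 11 libraries. None of the 6 members passed at FDR under 0.05, against 27.3% of the 945 miRNAs tested. The difference, pre-treatment minus co-treatment, was 1.61 on the log2 scale for miR-33a-3p (95% interval -0.02 to 3.25, edgeR FDR 0.132), 1.37 for miR-33b-3p, 1.01 for miR-33b-5p and 0.59 for miR-33a-5p. It was 0.85 for miR-107 (95% interval -0.13 to 1.84, edgeR FDR 0.189) and -0.19 for miR-103a-3p (95% interval -1.20 to 0.82). For all 4 miR-33 arms the interval held both 0 and a difference as large as the co-treatment response. Without pre-treatment control 2 the difference was 2.61 for miR-33a-3p, 1.75 for miR-33b-5p and 0.35 for miR-107. Without pre-treatment control 1 it was 0.83, 0.32 and 1.47. Each of these fits rests on a lone pre-treatment control. The timing and any batch between the experiments cannot be told apart.

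Ratios of members within a library do not depend on its scaling. The ratio of miR-107 to miR-103a-3p may still depend on how reads that match more than 1 place were counted, which is not given. The log2 ratio of miR-107 to miR-103a-3p, 2 miRNAs with 1 seed and 1 differing base, was 5.24, 4.93 and 5.03 in the co-treatment controls and 4.51, 4.57 and 4.32 with H2O2. It was 4.04 and 3.73 in the pre-treatment controls and 4.34, 4.48 and 4.42 with H2O2. The H2O2 libraries of both experiments thus lay within 4.32 to 4.57, the co-treatment controls all above that range and the pre-treatment controls both below it. In co-treatment the mean log2 ratio was 5.07 ± 0.16 in controls and 4.47 ± 0.13 with H2O2 (SD, n = 3), with no overlap, at the smallest p that an exact permutation test of 3 against 3 allows (two-sided p = 0.1). In pre-treatment the mean was 3.88 ± 0.22 (SD, n = 2) in controls and 4.41 ± 0.07 (SD, n = 3) with H2O2, again with no overlap and at the smallest p that 3 against 2 allows (exact permutation test, two-sided p = 0.2). Adjusted over the 8 ratio comparisons both were at 0.8. miR-103a-3p made up 2.57% to 7.02% of the counts of the pair, with a median of 4.27%.

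The ratios within the miR-33 genes did not differ beyond their spread. The log2 ratio of the 5p to the 3p arm of miR-33a was 1.75 ± 0.86 with H2O2 and 1.37 ± 0.29 in controls of co-treatment (SD, n = 3, exact permutation test, two-sided p = 0.7). For miR-33b it was 0.96 ± 1.07 and 0.54 ± 0.37 (SD, n = 3, exact permutation test, two-sided p = 0.8). In both, H2O2 library 1 was the highest of the 6 libraries, at 2.72 for miR-33a and 2.19 for miR-33b. The log2 ratio of miR-33a-5p to miR-33b-5p, from different chromosomes, was 1.97 ± 0.17 with H2O2 and 1.99 ± 0.14 in controls of co-treatment (SD, n = 3, exact permutation test, two-sided p = 1). In pre-treatment these 3 ratios differed by -0.71, 0.11 and -0.59 between H2O2 and control (exact permutation test, two-sided p = 0.4, 0.8 and 0.4).

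**Figure D3:**
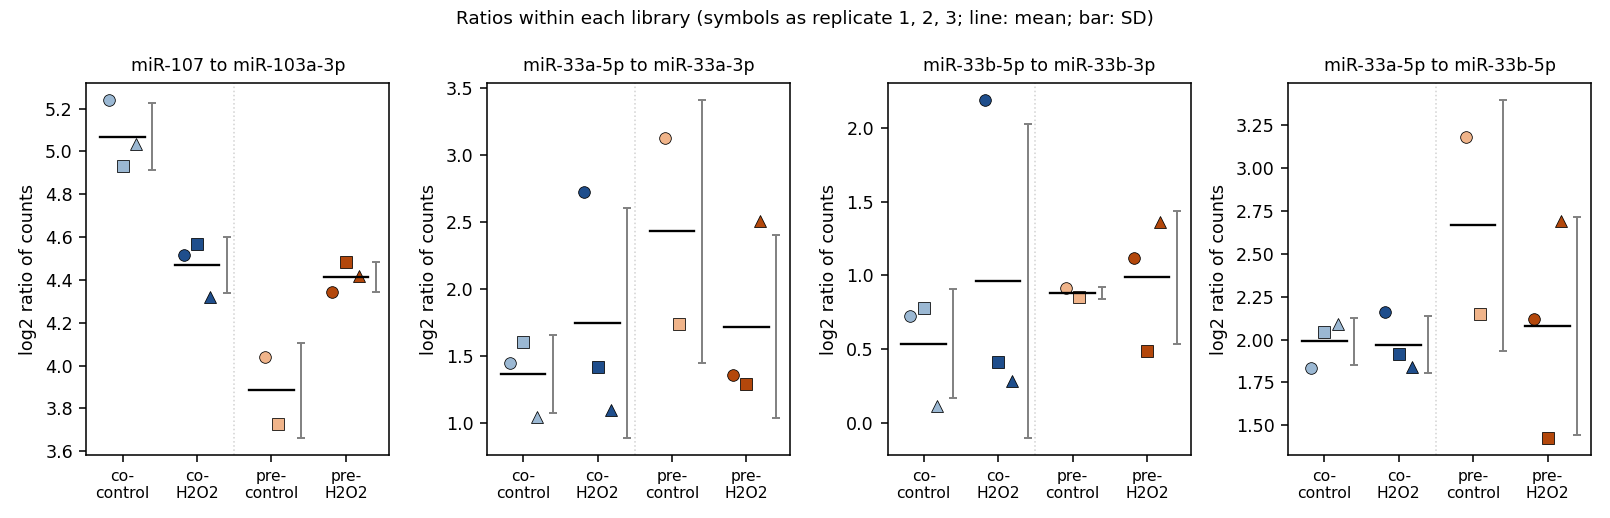
log2 ratio of counts of 2 miRNAs within each library (0.5 added to both counts; vertical axes do not start at 0), by group, with the mean as a line and the SD as a bar. The ratio of miR-107 to miR-103a-3p is at 4.32 to 4.57 in the H2O2 libraries of both experiments, at 4.93 to 5.24 in the co-treatment controls and at 3.73 and 4.04 in the pre-treatment controls; the other 3 ratios overlap between H2O2 and control in co-treatment.

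miR-103a and miR-107 are often grouped with miR-15, miR-16 and their relatives because all hold the letters AGCAGC near the 5′ end. They start at base 1 in miR-103a-3p and miR-107 and at base 2 in the relatives, whose seeds therefore differ, as this sequence of miR-16-5p shows beside those above.
hsa-miR-16-5p: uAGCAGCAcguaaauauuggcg

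Of 8 relatives listed, 7 were tested, and hsa-miR-646 had 0 counts in every library. In co-treatment 2 of the 7 were lowered and none raised, and the point estimates of all 7 were below 0, with a median log2FC of -0.58 against -0.04 over all miRNAs tested, while miR-103a-3p rose. The share called was close to the 26.2% of all miRNAs (15.6% lowered). hsa-miR-424-5p, from an X-linked cluster, fell by 1.51 (SE 0.32, edgeR exact test, FDR 0.000228). hsa-miR-15a-5p, known as a repressor of BCL2 in the cell death pathway, fell by 1.19 (SE 0.24, edgeR exact test, FDR 0.000330). The 5 others had a log2FC of -0.75 to -0.29. In pre-treatment 4 of the 7 were raised and none lowered, where 5.41% of all miRNAs were raised and 9.91% lowered, and their median log2FC was 1.05 against -0.19 over all. These were hsa-miR-195-5p (1.27), hsa-miR-497-5p (1.12), hsa-miR-16-5p (1.06) and hsa-miR-15a-5p (1.05), at an FDR in edgeR's exact test of 0.00825 to 0.0291. The quasi-likelihood test called none of them, at FDR 0.0520 to 0.0590.

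Other miRNAs that are known to act on sterol or lipid genes did not move as 1 group. Of 20 listed, 19 were tested, and hsa-miR-144-3p, with at most 10 counts, was not. In co-treatment 5 were lowered, 1 was raised and 13 did not pass, with a median log2FC of -0.27 against -0.04 over all miRNAs, a share called near the 26.2% of all miRNAs (15.6% lowered and 10.6% raised). hsa-miR-106b-5p, a repressor of ABCA1 as miR-33 is, fell by 2.03 (SE 0.34, edgeR exact test, FDR 7.31e-06). hsa-miR-148a-3p, known to repress the LDL receptor, fell by 1.10 (SE 0.26, edgeR exact test, FDR 0.00223). hsa-miR-27b-3p fell by 0.78, and hsa-miR-30c-5p and hsa-miR-758-3p, the latter at 25 counts or fewer a library, fell by 1.497 and 1.79. hsa-miR-370-3p, from the imprinted DLK1-DIO3 region, was the 1 that rose (log2FC 1.26, SE 0.36, edgeR exact test, FDR 0.00797). The quasi-likelihood test called 5 of these 6, and not hsa-miR-758-3p.

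In pre-treatment 2 of these 19 were raised, 3 were lowered and 14 did not pass, where 15.3% of all miRNAs were called (5.41% raised and 9.91% lowered). Their median log2FC was 0.35 against -0.19 over all. hsa-miR-122-5p, the main miRNA of liver, rose by 1.88 (SE 0.48, edgeR exact test, FDR 0.0116), and hsa-miR-96-5p, from a cluster of sensory organs, rose by 1.31. hsa-miR-145-5p fell by 1.26 and hsa-miR-30c-5p by 1.90. hsa-miR-223-3p, a miRNA of myeloid cells, was called lower, but its counts were 540 in control 1, 4 in control 2 and 8 to 11 with H2O2, so the call rested on control 1. The quasi-likelihood test called none of the 5. hsa-miR-106b-5p had a log2FC of 0.23 and hsa-miR-27b-3p of 0.14, and neither passed.

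**Figure D4:**
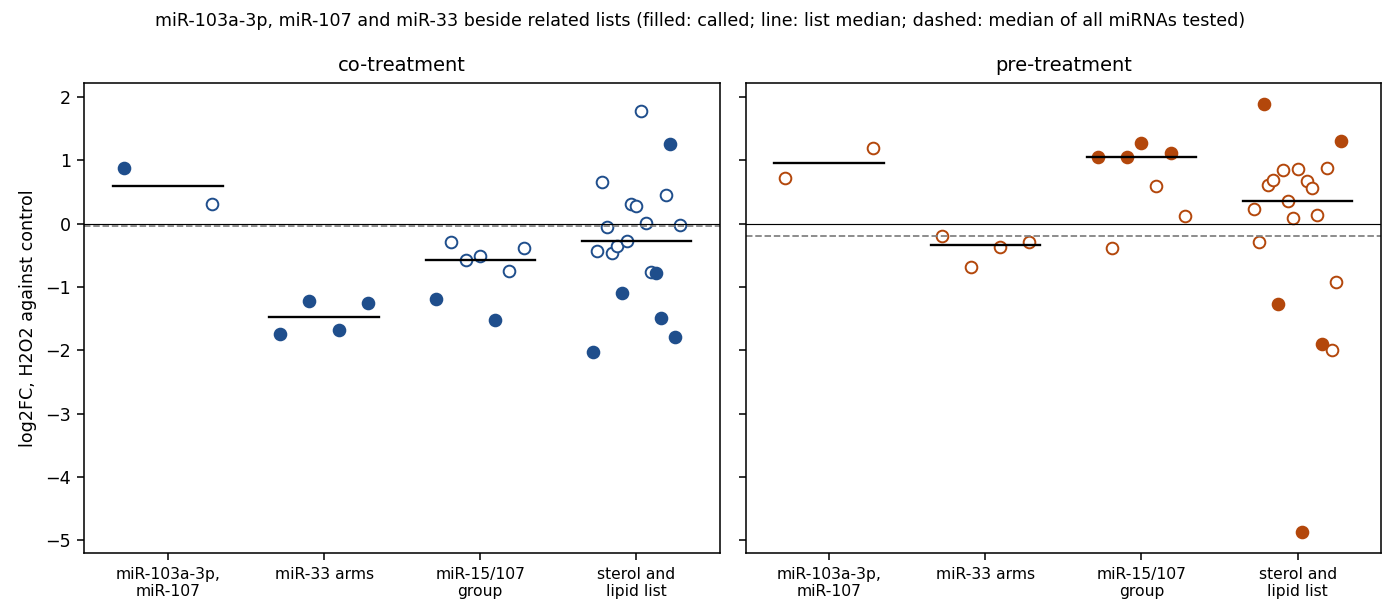
log2FC of H2O2 against control in co-treatment (left) and pre-treatment (right) for miR-103a-3p and miR-107, the 4 miR-33 arms, 7 relatives of the miR-15/miR-107 group and 19 other sterol and lipid miRNAs, 1 point a miRNA, filled where called by the exact test, with list medians as lines and the median of all miRNAs tested dashed. In co-treatment the miR-33 arms and the relatives lie below 0 while miR-103a-3p and miR-107 lie above it; in pre-treatment 4 relatives are called higher and none of the 6 members is called.

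By root mean square difference in log2 CPM over the 11 libraries, after each miRNA's own mean was taken off, the closest of 404 candidates to miR-107 were hsa-miR-641 (0.17), hsa-miR-181b-5p (0.26) and hsa-miR-488-5p (0.27). Those closest to miR-103a-3p were hsa-miR-339-3p (0.21), hsa-miR-125b-2-3p (0.26) and hsa-miR-769-3p (0.27). Those closest to miR-33a-5p were hsa-miR-16-1-3p (0.24), hsa-miR-497-3p (0.27) and hsa-miR-1277-3p (0.41), for a spread of miR-33a-5p itself of 0.72. Neither miR-107 nor miR-103a-3p was among the 3 nearest of the other. The other 3 arms averaged under 10 CPM and were not compared in this way.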

How the data were processed

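Small RNA of SH-SY5Y cells was sequenced with the QIAseq miRNA kit in 11 libraries. Per the study's methods and the submitters' processing notes, the authors used cutadapt 2.10 for trimming, Bowtie2 2.4.1 for alignment (hg19) and HTSeq 0.7.2 for counting mature miRNAs. The counts the authors deposited are raw. The strand setting, the rule for multiply matching reads, the miRBase release and the use of molecular identifiers are not given in the sources used here. The authors' own fold changes, p-values and FDR, in tables of their own, were not used.

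Samples were grouped by their labels. In R 4.3.3, H2O2 was compared with control by the exact test of edgeR 4.0.16, after the study's methods, with TMM scaling, which those methods do not name. A miRNA entered the test at a CPM above 0.936 in 3 or more co-treatment libraries, or above 0.721 in 2 or more pre-treatment libraries, which is 5 counts of the shallowest library. Calls needed FDR under 0.05 and absolute log2FC above 0.6. SE and intervals come from edgeR's quasi-likelihood test, an alternative beside library-size and DESeq2 1.42.0 scaling, other filters and thresholds, the replicate block, GC content, summed counts and each library left out. GC content came from the RefSeq mature sequences (88.6% and 88.5% of miRNAs tested). Ratios added 0.5 to each count, with a permutation test whose two-sided p is the smaller tail doubled. Counts are of reads, so intervals cover counting and library spread only. Scripts were tested on simulated data.

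The members and lists (hairpin partners, miR-15/miR-107 group, sterol and lipid list, cell type markers) were chosen with earlier results of these data known. Named miRNAs are the 6 members, every list member called in either experiment with up to 3 that were not, and, for members averaging at least 10 CPM, the 3 nearest in profile.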

Additional observations from a re-analysis of the deposited data

Results flagged for a closer look

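The H2O2 effect on the log2 ratio of miR-107 to miR-103a-3p had opposite signs in the experiments. It was -0.60 in co-treatment and 0.53 in pre-treatment, a difference of 1.13 (pre-treatment minus co-treatment). An exact permutation test of the labels within each experiment was added after this separation had been seen. Its two-sided p = 0.01 is the smallest that 200 permutations allow and follows from the separation (0.04 adjusted over 4 ratios), so it is a description and not independent support, and the difference is not shown by it. All 3 H2O2 libraries were below all 3 controls in co-treatment, and all 3 were above both controls in pre-treatment. The controls of the experiments differed more from each other than the H2O2 libraries did, and the timing and any batch between the experiments cannot be told apart. The interaction of either miRNA alone did not pass in the fit of all 11 libraries (edgeR FDR 0.189 for miR-107 and 0.794 for miR-103a-3p).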

How the results depend on the processing

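Of the 6 members, 5 were called in co-treatment, and this number moved with several settings. The share of all miRNAs called in the same fit is given in brackets, and was 26.2% in the main fit. The number was 3 with a mean of at least 10 CPM required (37.4%), which left 4 members tested, and 3 with the GC trend removed (7.43%). It was 1 in one quasi-likelihood fit of all 11 libraries (8.89%) and 0 to 5 with 1 library left out (13.2% to 37%). With the replicate number as a block it was 2, miR-103a-3p and miR-33a-3p (14.1%). With the block and the GC trend removed together it was 0, as it was for all 700 miRNAs tested. Deviations from group means correlated at 0.04, -0.25 and -0.26 for same-numbered libraries in co-treatment, and at -0.13 to 0.32 for unlike numbers. In pre-treatment same-numbered libraries were at 0.36 and -0.03. There the deviations of the 2 controls mirror each other, so these values cannot decide on pairing. The numbers were not taken to pair samples, which remains an assumption. The number called stayed at 5 with the quasi-likelihood test. In pre-treatment the 0 called became 1 (miR-107, edgeR FDR 0.0292) in one fit of all 11 libraries and 0 to 2 with 1 library left out, and was 0 with the block. The interaction, with 0 members, stayed at 0 in 9 of 11 fits with 1 library left out. The other 2 fits rest on a lone pre-treatment control. In pre-treatment the quasi-likelihood test called 0 of the miR-15/miR-107 group, against 4, and 0 of the sterol and lipid list, against 5. No called member turned direction under any alternative run. Library size, DESeq2 scaling and the DESeq2 test left 207 within 1.5 times.

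All miRNAs called in co-treatment, 207, became 98 to 279 with 1 library left out. The quasi-likelihood test called 181 and, with the block, 111, and one fit of all libraries called 84. Among the 700 miRNAs with a sequence it called 154, and 52 with the GC trend removed. In pre-treatment 133 became 17 with the quasi-likelihood test, 61 without a low-count filter and 9 to 449 with 1 library left out. The block took the 17 to 15, and the GC trend took 12, among the 768 miRNAs with a sequence, to 2 and, with the block, to 0. The interaction, 258, became 115 with the block. The share of co-treatment calls that were raised, 40.6%, was 50.5% with library size in place of TMM, 56.9% with the filter met in every library and 60.1% with a mean of at least 10 CPM. At 11 to 105 counts a library, the miR-33b arms had the least depth of the 6.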
